A study of Saccharomyces cerevisiae with 8 samples.

Results

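RIM15, IGO1, IGO2, GIS1, MSN2, MSN4, SCH9, YAK1, RIM11 and MCK1, 10 genes in all, are described here across 8 poly(A) RNA libraries of Saccharomyces cerevisiae. They encode kinases and transcription factors of the starvation response and, in IGO1 and IGO2, small inhibitors of a phosphatase. They were chosen by name and identifier, not by any measured value. They make up 10 of the 6713 targets in each deposited table, and all 10 passed the filter on low counts that left 6346 genes for testing.

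The libraries fall into 4 groups of 2 replicates. Cured SPO and prion SPO are cells held for 14 h in SPO, the sporulation medium. Cured preSPO and prion preSPO are cells grown to saturation over 48 h in preSPO medium. Prion stands for cells labelled as carrying the natural [SMAUG+] prion, a self-propagating, heritable form of the RNA-binding protein Vts1, and cured for cells labelled as having lost it by selective curing. All groups share the diploid laboratory strain BY4743, generally described as deleted for HIS3, LEU2 and URA3 and for 1 copy each of LYS2 and MET17, which these labels do not state. The labels give the genotype as wild type in every group and name no allele that differs between the states, whereas MET17 counts, given below, differed between libraries. Per the labels each 10 ml culture was divided, 5 ml harvested in preSPO medium and 5 ml moved to SPO medium, so SPO also means later in time. The submitters' overall design also mentions overexpressing and deleting VTS1, but the labels of these samples name neither. Nothing beyond the labels shows how many clones or independent cultures stand behind the replicates, so p-values measure the spread between these libraries, which may be technical.

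When glucose or nitrogen runs out, yeast cells lose the signals of protein kinase A (PKA) and of the TORC1 complex, which otherwise hold the starvation program down. Rim15 is the kinase on which these signals meet. Once active it phosphorylates the small endosulfines Igo1 and Igo2, which then inhibit the phosphatase PP2A with its Cdc55 subunit. This protects mRNAs from decay and allows the factor Gis1 to act at post-diauxic shift (PDS) elements, while Msn2 and Msn4 act at stress response elements (STRE). Sch9 is the kinase directly below TORC1 that restrains Rim15, and Yak1 is a kinase that opposes PKA. Rim11 and Mck1 are kinases of the GSK-3 family, and both promote entry into meiosis. Most of this regulation acts on the proteins, by phosphorylation and nuclear entry, and the libraries measure mRNA only.

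Sums of estimated counts ran from 4650288 in cured SPO replicate 1 to 71684771 in cured SPO replicate 2. The 10 genes had between 237 and 13966 rounded counts in every library, so none of their values rested on a handful of reads. TAR1, a reading frame inside the ribosomal DNA, took 10.6% to 14.8% of counts in SPO libraries and 3.18% to 8.22% in preSPO libraries. MET17 went against the labels in SPO medium. It had 447 counts in the library labelled cured SPO replicate 1 and 13 in cured SPO replicate 2, against 1363 in prion SPO replicate 1 and 1 in prion SPO replicate 2. In preSPO medium the libraries labelled cured had 0 and 1 counts, against 3207 and 3867 in those labelled prion. Counts of 0 and 1 go against 1 intact copy of MET17 in the cured preSPO libraries. HIS3 was counted in all 8 libraries, but the labels do not say what part of HIS3 is deleted, so its counts are no check of the strain. Groups follow the labels throughout, and results that rest on prion SPO replicate 2 and cured SPO replicate 1 were also computed without both. VTS1 was counted in all 8 libraries. Summed levels of 8 genes of sporulating cells were 119 to 155 CPM (counts scaled to a common library size of 1e+06) in SPO libraries, against 77.7 to 82.4 CPM in preSPO libraries, and 9 haploid-specific genes, normally repressed in diploids, summed to 226 to 235 CPM against 112 to 173 CPM with none at 0. What part such cells had in the results below was not tested.

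The promoters were searched for the letters that Msn2 and Msn4, Gis1 and Ume6 are known to bind. Within 600 bases before the start codon, STRE (CCCCT or its reverse complement AGGGG) stood in 6 of the 10 genes. Over 5992 windows of the same length in the genome, 39.7% held STRE, and 10.76% held it more than once. YAK1 had 3 matches, at 249, 222 and 206 bases before its start codon, while IGO1, SCH9, RIM11, GIS1 and MSN2 had 1 each. No match stood in the windows of RIM15, IGO2, MSN4 or MCK1. The PDS element bound by Gis1, searched as TTAGGGAT and TAAGGGAT on both strands, stood in none of the 10 windows and in 3.05% of all windows. URS1, the core GGCGGC bound by the meiotic regulator Ume6, stood in MSN4 alone, 485 bases before the start codon, and in 11.37% of all windows. The stretches below are from the RefSeq R64 genome, read 5′ to 3′ on the coding strand, with the motif letters in capitals. They are YAK1 chrX:150571-150660 (minus strand), IGO1 chrXIV:340182-340261 (plus), SCH9 chrVIII:509153-509232 (plus), RIM11 chrXIII:545815-545894 (plus) and MSN4 chrXI:322703-322782 (plus).
YAK1: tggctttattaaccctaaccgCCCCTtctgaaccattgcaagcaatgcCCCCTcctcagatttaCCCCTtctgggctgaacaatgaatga
IGO1: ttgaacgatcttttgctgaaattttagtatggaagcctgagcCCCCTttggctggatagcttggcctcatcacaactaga
SCH9: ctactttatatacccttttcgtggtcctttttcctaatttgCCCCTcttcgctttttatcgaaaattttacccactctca
RIM11: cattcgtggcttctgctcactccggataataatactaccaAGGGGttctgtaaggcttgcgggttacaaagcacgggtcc
MSN4: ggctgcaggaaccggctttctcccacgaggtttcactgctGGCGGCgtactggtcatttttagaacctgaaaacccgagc
A match describes letters and shows no binding. The upstream neighbour of IGO1, PGA1, ends 143 bases before the IGO1 start codon, so the first bases of the IGO1 stretch lie in PGA1. The match of IGO1 itself lies between genes, as do those of YAK1, SCH9 and RIM11.

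Because Vts1 binds RNA hairpins with a CNGG loop, the coding sequences of the 10 genes were searched for a CNGG or CNGGN loop on a stem of 5 base pairs. YAK1 was the only one of the 10 with such a hairpin. It had 2, at chrX:148254-148267 and chrX:148107-148120 on the minus strand of R64, and 18.5% of 5995 coding sequences in the genome held at least 1. They are printed as RNA with the loop in capitals.
YAK1 hairpin at base 2129: guuuaCAGGugagu
YAK1 hairpin at base 2276: ugccaCUGGuggug
The base number is that of the first loop base in the YAK1 coding sequence. No value below bears on whether Vts1 binds there.

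The first question was how the 10 genes stood after the move into SPO medium. By edgeR's quasi-likelihood test, 5 were called in cured libraries and 4 in prion libraries, at an adjusted p under 0.05 (Benjamini-Hochberg over all 6346 genes). Of all genes tested, 57.2% were called in cured and 53.3% in prion libraries, so the counts of members called lay near the background. In cured libraries RIM15, IGO2 and SCH9 rose and IGO1 and MSN4 fell, where 28.6% of all genes rose and 28.6% fell. In prion libraries IGO2, SCH9 and RIM11 rose and MSN4 fell, where 26.2% of all genes rose and 27.1% fell. Replicates of the media did not overlap for 7 of the 10 members in cured and 6 in prion libraries, beside 78.6% and 80.6% of all genes. The median log2 fold change over the 10 genes was 0.33 in cured and -0.10 in prion libraries, beside 0.03 and 0.00 over all genes. MSN4 stood apart in size in both states, and IGO2 was next in prion libraries and SCH9 in cured libraries. A lower level in a bulk library can mean fewer cells with the RNA or less RNA per cell, and these cannot be told apart here.

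Directions of the smaller changes depend on scaling. The values here are CPM scaled by the trimmed mean of M-values (TMM), which sets the bulk of genes at no change. With TPM values, tested as log2(TPM + 1) with limma, the median of all genes moved to -0.89 in cured and -0.56 in prion libraries, and with plain library sizes to -0.37 and -0.17. Of all genes called, 1816 of 3633 were higher in SPO medium in cured libraries with TMM, 1081 of 3576 with library sizes and 549 of 4013 with TPM. In prion libraries these were 1660 of 3380, 1210 of 3107 and 688 of 3184. A change of scaling moves the genes of a library by much the same amount, and subtracting the median of all genes largely removes it. Similar values relative to that median are therefore no separate check of a change. IGO2 in cured libraries stood 0.87 above the median with TMM, 0.86 with library sizes and 0.79 with TPM. MSN4 stood at -3.09, -3.11 and -2.96, RIM15 at 0.57, 0.60 and 0.56, and SCH9 at 1.13, 1.16 and 1.04.

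**Figure D1:**
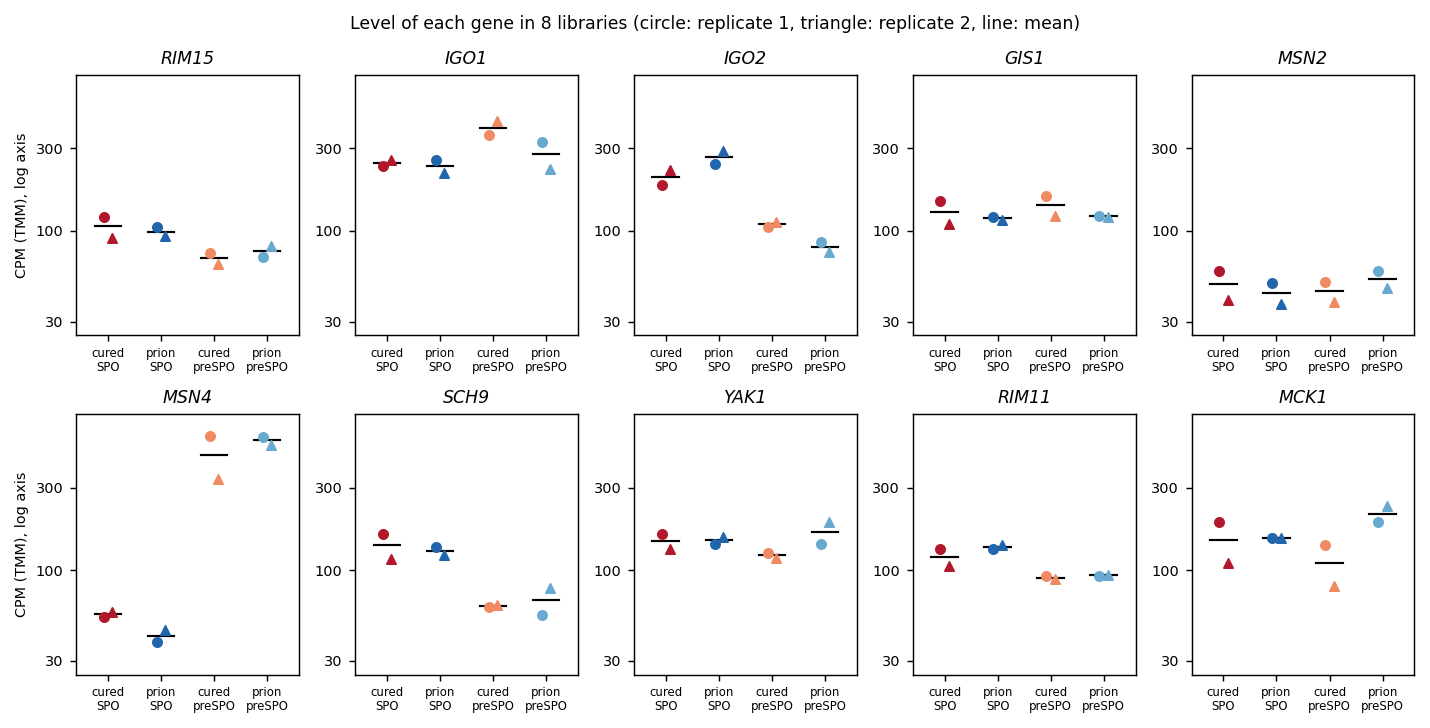
Level of each of the 10 genes in CPM (TMM-scaled, log axis) in the 8 libraries, with replicate 1 as a circle, replicate 2 as a triangle and the group mean as a line. MSN4 lies between 38.4 and 57.6 CPM in the 4 SPO libraries and between 337 and 593 CPM in the 4 preSPO libraries, while GIS1 and MSN2 overlap between media.

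MSN4 and MSN2 encode paralogous zinc finger activators that bind the same element, and MSN4 was called in both states while MSN2 was called in neither. MSN4 (YKL062W, chromosome XI, 323228 to 325120, plus strand) had 53.7 and 57.6 CPM in cured SPO, against 593 and 337 CPM in cured preSPO. It had 38.4 and 45.3 CPM in prion SPO, against 592 and 532 CPM in prion preSPO. Every SPO library lay far below every preSPO library, in both states, and the widest gap between replicates was in cured preSPO.

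MSN4 fell by 3.06 on the log2 scale in cured libraries (SE 0.284; Benjamini-Hochberg adjusted p = 6.67e-05 by edgeR), which is 8.33-fold lower. In prion libraries it fell by 3.75 (SE 0.292, adjusted p = 3.04e-05), which is 13.4-fold lower. The call held in both states under all 16 alternatives, with log2 fold changes of -3.98 to -2.60 in cured and -4.35 to -3.63 in prion libraries. No other member of the 10 held its call under every alternative in both states.

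MSN2 (YMR037C, chromosome XIII, 344403 to 346517, minus strand) had 58.5 and 39.8 CPM in cured SPO, against 50.7 and 38.9 CPM in cured preSPO. In prion libraries it had 50.2 and 38.0 CPM in SPO medium, against 58.7 and 46.9 CPM in preSPO medium. The media overlapped in both states. Its log2 fold change was 0.12 in cured (SE 0.248, adjusted p = 0.698, edgeR) and -0.26 in prion libraries (SE 0.246, adjusted p = 0.395), with 95% intervals of -0.44 to 0.68 and -0.82 to 0.30. Changes of MSN2 within these intervals remain compatible with the values of 2 replicates a group.

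Set against each other within a library, which no scaling alters, the paralogs stood in another ratio in each medium. The ratio of MSN4 to MSN2, in TPM, was 1.04 and 1.63 in cured SPO, against 13.2 and 9.77 in cured preSPO. It was 0.863 and 1.34 in prion SPO, against 11.4 and 12.8 in prion preSPO. MSN4 gave most of the pair's mRNA in the saturated cultures and about as much as MSN2 in SPO medium. The sum of both, in TPM, was 11.8 to 20.5 in SPO libraries and 107 to 215 in preSPO libraries.

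**Figure D2:**
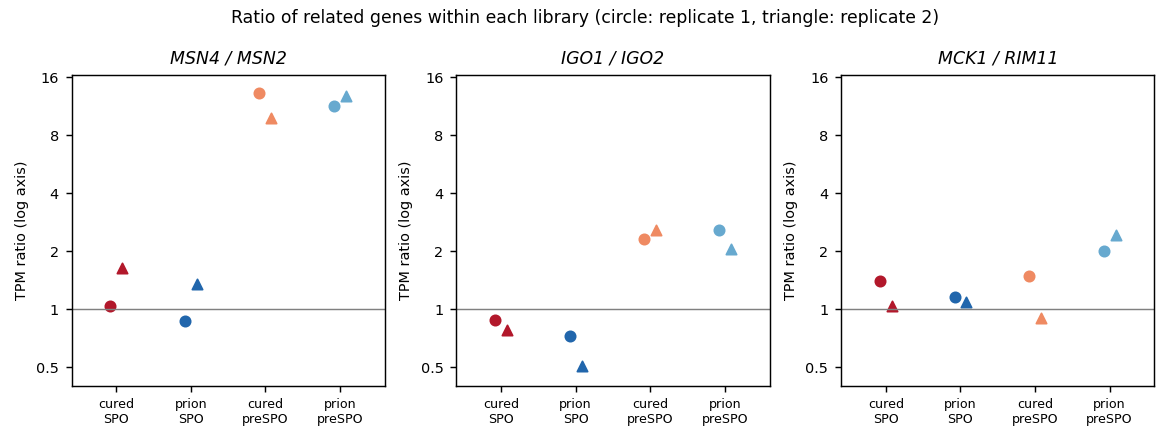
Ratio of TPM values within each library (log axis) for MSN4 over MSN2, IGO1 over IGO2 and MCK1 over RIM11, with replicate 1 as a circle, replicate 2 as a triangle and a grey line at a ratio of 1. The first 2 ratios do not overlap between SPO and preSPO libraries, and MCK1 over RIM11 is highest in the 2 prion preSPO libraries, at 2.01 and 2.44.

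RIM15 (YFL033C, chromosome VI, 69115 to 74427, minus strand) encodes the kinase at the head of the module. It had 121 and 91.2 CPM in cured SPO, against 74.8 and 64.2 CPM in cured preSPO. In prion libraries it had 105 and 93.0 CPM in SPO medium, against 71.1 and 81.5 CPM in preSPO medium. Both SPO libraries lay above both preSPO libraries in each state. RIM15 rose by 0.61 (log2) in cured libraries (SE 0.190, adjusted p = 0.0230, edgeR), and its value in prion libraries was 0.37 (SE 0.189, adjusted p = 0.125). Without cured preSPO replicate 2 (log2 0.50) or without cured SPO replicate 1 (0.39) it was no longer called in cured libraries, nor without the pair that MET17 sets against its labels (0.39) or with library sizes (0.23), and the sign turned with TPM (-0.33). It shares 0.189% of its 31-base words with other coding sequences, so few of its reads could have been assigned elsewhere.

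IGO1 and IGO2 encode the endosulfines that Rim15 phosphorylates, and in cured libraries IGO2 rose while IGO1 fell. IGO2 (YHR132W-A, chromosome VIII, 370054 to 370449, plus strand) had 184 and 224 CPM in cured SPO, against 105 and 113 CPM in cured preSPO. It had 242 and 291 CPM in prion SPO, against 86.0 and 75.8 CPM in prion preSPO. Every SPO library exceeded every preSPO library, and the step was wider in prion libraries.

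IGO2 rose by 0.90 on the log2 scale in cured libraries (SE 0.186, adjusted p = 0.00347, edgeR), a 1.87-fold higher level. It rose by 1.72 in prion libraries (SE 0.190, adjusted p = 0.000159), a 3.30-fold higher level, and that call held under all 16 alternatives. In cured libraries the call was lost with library sizes (log2 0.49, adjusted p = 0.0634) and the sign turned with TPM (-0.10). The difference between the states in this response was -0.82 (SE 0.262, adjusted p = 0.276, unadjusted p = 0.0126, edgeR quasi-likelihood), with a 95% interval of -1.42 to -0.22, and was not called.

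IGO1 (YNL157W, chromosome XIV, 340352 to 340858, plus strand) had 236 and 257 CPM in cured SPO, against 357 and 429 CPM in cured preSPO. It had 258 and 216 CPM in prion SPO, against 326 and 228 CPM in prion preSPO. The media were apart in cured libraries and overlapped in prion libraries. IGO1 fell by 0.67 (log2) in cured libraries (SE 0.224, adjusted p = 0.0295, edgeR), and its log2 fold change in prion libraries was -0.23 (SE 0.223, adjusted p = 0.411). The cured value stayed between -0.74 and -0.53 when 1 library was left out, but it was not called once cured preSPO replicate 2, either cured SPO replicate or either prion SPO replicate was absent. With TPM it was called in both states, at -0.83 in prion libraries. In prion libraries the value was 0.05 without prion preSPO replicate 1.

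The ratio of IGO1 to IGO2, in TPM, was 0.875 and 0.780 in cured SPO, against 2.30 and 2.58 in cured preSPO. It was 0.725 and 0.505 in prion SPO, against 2.58 and 2.05 in prion preSPO. IGO1 was the more abundant endosulfine mRNA in all 4 preSPO libraries and IGO2 in all 4 SPO libraries. The endosulfines also had the highest means of the 10 mRNAs per length in every group, though IGO2 overlapped MSN4 in prion preSPO. In cured SPO IGO2 averaged 235 ± 36.8 TPM and IGO1 195 ± 46.2 TPM (SD, n = 2), and these overlapped.

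GIS1 (YDR096W, chromosome IV, 637139 to 639823, plus strand), the zinc finger factor that acts below Rim15 and Igo1/2, had 149 and 109.8 CPM in cured SPO, against 159.9 and 123 CPM in cured preSPO. In prion libraries it had 121 and 116 CPM in SPO medium, against 122 and 120.4 CPM in preSPO medium. The media overlapped in both states. Its log2 fold change was -0.13 in cured (95% interval -0.59 to 0.33, adjusted p = 0.601, edgeR) and -0.04 in prion libraries (-0.50 to 0.42, adjusted p = 0.885). With TPM it was called lower in cured libraries (log2 -1.06), where all genes had a median of -0.89.

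SCH9 (YHR205W, chromosome VIII, 509363 to 511837, plus strand), the TORC1 substrate kinase that restrains Rim15, rose in SPO medium in both states. It had 161 and 117 CPM in cured SPO, against 61.3 and 62.7 CPM in cured preSPO. It had 137 and 122 CPM in prion SPO, against 55.0 and 78.8 CPM in prion preSPO. All SPO libraries lay above all preSPO libraries. The rise was 1.16 on the log2 scale in cured (SE 0.226, adjusted p = 0.00260, edgeR) and 0.95 in prion libraries (SE 0.225, adjusted p = 0.00727). Both calls held without any 1 library and without the pair that MET17 sets against its labels, and both were lost with TPM, at 0.15 and 0.33. In TPM SCH9 averaged 17.3 ± 8.71 in cured SPO and 14.5 ± 1.39 in cured preSPO (SD, n = 2 each).

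YAK1 (YJL141C, chromosome X, 147967 to 150390, minus strand), the DYRK family kinase with the 3 STRE matches, had 161 and 133 CPM in cured SPO, against 126 and 118 CPM in cured preSPO. It had 142 and 156 CPM in prion SPO, against 141 and 191 CPM in prion preSPO. The media were apart in cured libraries and overlapped in prion libraries. Its log2 fold change was 0.26 in cured (95% interval -0.19 to 0.71, adjusted p = 0.281, edgeR) and -0.16 in prion libraries (-0.61 to 0.29, adjusted p = 0.527). YAK1 overlaps IRC9 by 245 bases on the same strand and shares 8.98% of its 31-base words with it, so a part of its reads could be counted for either gene.

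RIM11 and MCK1 encode the GSK-3 family kinases, of which RIM11 rose in prion libraries and MCK1 was called in neither state. RIM11 (YMR139W, chromosome XIII, 546125 to 547237, plus strand), which phosphorylates the meiotic regulators Ime1 and Ume6, had 133 and 105 CPM in cured SPO, against 92.6 and 88.7 CPM in cured preSPO. It had 132 and 139 CPM in prion SPO, against 93.2 and 94.5 CPM in prion preSPO. All SPO libraries lay above all preSPO libraries. RIM11 rose by 0.53 (log2) in prion libraries (SE 0.167, adjusted p = 0.0257, edgeR), and its value in cured libraries was 0.39 (SE 0.168, adjusted p = 0.0741). The prion call was lost when any 1 prion library was left out, at log2 0.48 to 0.57, and with library sizes (0.35), and the sign turned with TPM (-0.09 in prion and -0.59 in cured libraries).

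MCK1 (YNL307C, chromosome XIV, 56446 to 57573, minus strand), which also acts in chromosome segregation and stress resistance, had 189.6 and 111 CPM in cured SPO, against 139.7 and 81.3 CPM in cured preSPO. It had 154 and 153 CPM in prion SPO, against 190.4 and 234 CPM in prion preSPO. The media overlapped in cured libraries, and both prion SPO libraries lay below both prion preSPO libraries. Its log2 fold change was 0.44 in cured (SE 0.312, adjusted p = 0.253, edgeR) and -0.46 in prion libraries (SE 0.310, adjusted p = 0.234), and the difference of these responses was 0.91 (SE 0.440, adjusted p = 0.434). With the culture as a block, where each SPO library is set against the preSPO library of the same state with the same letter in its description, MCK1 was called in both states, at 0.44 in cured (adjusted p = 0.0409, edgeR) and -0.46 in prion libraries (adjusted p = 0.0384). The difference of responses was 0.90 in that fit (adjusted p = 0.145), which was not called. The opposite directions were lost with TPM (pseudocount 0.1), at -0.54 in cured and -1.08 in prion libraries. All genes had medians of -0.96 and -0.60 there. In prion libraries MCK1 was called under 3 of the 16 alternatives, the culture block among them. The labels do not say that the letter marks a culture, and MET17 goes against the labels of an SPO library in each state.

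**Figure D3:**
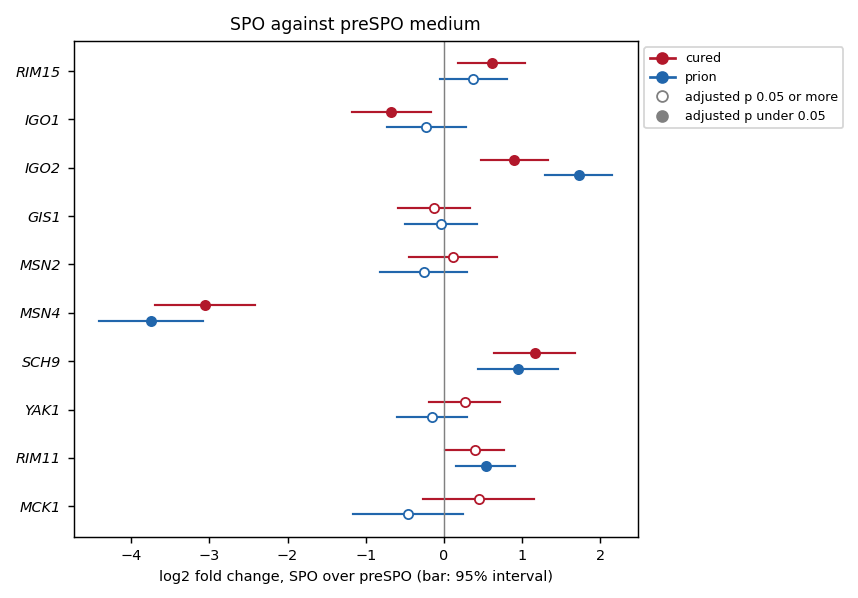
Log2 fold change of SPO over preSPO for the 10 genes in cured (red) and prion (blue) libraries, with 95% intervals from edgeR and filled points where the adjusted p is under 0.05. MSN4 is lowest at -3.06 and -3.75, and SCH9, IGO2, RIM15 and RIM11 lie above 0 in both states.

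Per length, the 10 genes spanned a wide range of levels. In TPM the mean ran from 5.90 for RIM15 to 235 for IGO2 in cured SPO, from 6.30 to 366 for the same genes in prion SPO, from 7.35 for RIM15 to 607 for IGO1 in cured preSPO, and from 7.42 to 409.6 in prion preSPO. RIM15 was lowest in all 4 groups. In preSPO medium the endosulfines were followed, by mean, by MSN4, MCK1 and RIM11, and SCH9, MSN2 and RIM15 were at the bottom. Replicates of IGO2 and MSN4 overlapped in prion preSPO, those of MCK1 and RIM11 in cured preSPO, and those of SCH9 and MSN2 in both. In SPO medium MSN4 stood beside MSN2 near the bottom, and in cured SPO each neighbour in the order from YAK1 down to RIM15 overlapped the next.

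Over the 8 libraries, RIM11 and RIM15 had the most alike profiles among the 10, with a root mean square difference of 0.14 in centred log2 CPM. Both varied little themselves, by 0.255 for RIM11 and 0.283 for RIM15 around their own means. Genes outside the 10 lay nearer to each, ENV7 (0.053) to RIM11 and PET111 (0.065) to RIM15. MSN4 was farthest from every other member, with distances of 1.54 to IGO1 and 2.38 to IGO2 at the extremes. Among 4842 other genes, those nearest to MSN4 were SAM2 (0.21) and MES1 (0.24), which encode S-adenosylmethionine synthetase and methionyl-tRNA synthetase. IGO2 was nearest to NCA2 (0.12) and YNG1 (0.12), SCH9 to RAD52 (0.08) and PIB1 (0.09), and YAK1 to GSR1 (0.09) and GLC3 (0.09). The measure compares shapes over 8 libraries and gives no evidence of shared control.

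The second question was whether the genes stood at other levels in cured than in prion cells. By edgeR, 0 of the 10 genes were called in SPO medium, 0 in preSPO medium and 0 in the difference between the SPO responses. Of all genes, 0.0315% were called in SPO medium, 0.930% in preSPO medium and 0.0158% in the difference of responses. At an unadjusted p under 0.05 the members numbered 0 in SPO medium, 2 in preSPO medium (MCK1 and IGO2) and 1 in the difference of responses (IGO2), beside 2.43%, 19.9% and 12.5% of all genes, so these counts lay near the background. DESeq2 called 1 member, MCK1 in preSPO medium, and limma on log2(TPM + 1) called 0. Of all genes DESeq2 called 0.236% in SPO medium, 6.95% in preSPO medium and 2.10% in the difference of responses, and limma 0.158%, 1.48% and 0.646%. Because MET17 goes against the labels of an SPO library in each state, the lack of calls in SPO medium does not show that the states were alike. In preSPO medium MET17 went with the state, with 0 and 1 counts in cured libraries against 3207 and 3867 in prion libraries. Prion state and a difference at MET17 therefore cannot be told apart in any preSPO comparison of the states below. Calls over all genes in preSPO medium were also few and unstable, with 0 genes called when either prion SPO replicate was left out, 1 without cured preSPO replicate 1 or 2, 2 without prion preSPO replicate 2, and 468 when the other prion preSPO library was the one left out.

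MCK1 had the widest difference of the 10 in preSPO medium. Its levels were 139.7 and 81.3 CPM in cured preSPO, against 190.4 and 234 CPM in prion preSPO, and both cured libraries lay below both prion libraries. The log2 fold change was -0.95 (SE 0.313, 95% interval -1.66 to -0.24), with an unadjusted p of 0.0149 and an adjusted p of 0.160 by edgeR. By DESeq2 the adjusted p was 0.0478. The cured preSPO replicates differed from each other by 52.9% of their mean. In SPO medium MCK1 had a log2 fold change of -0.04 (95% interval -0.75 to 0.67, adjusted p = 1, edgeR), and the cured SPO replicates differed by 52.4%. In TPM the ratio of MCK1 to RIM11 was 1.48 and 0.902 in cured preSPO, against 2.01 and 2.44 in prion preSPO, so this balance too was apart between the states in preSPO medium.

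The endosulfines and YAK1 had the next widest values in preSPO medium. IGO1 had a log2 fold change of 0.50 (95% interval -0.003 to 1.011, adjusted p = 0.253, edgeR), IGO2 one of 0.44 (0.01 to 0.86, adjusted p = 0.241) and YAK1 one of -0.44 (-0.89 to 0.01, adjusted p = 0.261). Both cured libraries lay above both prion libraries for IGO1 and IGO2 and below them for YAK1. In SPO medium IGO2 had a log2 fold change of -0.38 (-0.80 to 0.04, adjusted p = 1), with 184 and 224 CPM in cured SPO against 242 and 291 CPM in prion SPO. IGO2 thus lay higher in cured libraries in one medium and lower in the other. Replicates did not overlap for 6 of the 10 members in preSPO medium and 2 in SPO medium, beside 46.9% and 32.3% of all genes.

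For the other members the values lay nearer to 0, with intervals that reach well beyond them. In preSPO medium the log2 fold changes of RIM15, GIS1, MSN2, MSN4, SCH9 and RIM11 ran from -0.27 for MSN4 to 0.22 for GIS1. Their 95% intervals by edgeR were -0.87 to 0.32 for MSN4 and -0.25 to 0.68 for GIS1, and that of MSN2 was -0.80 to 0.32. In SPO medium MSN4 had 0.41 (95% interval -0.19 to 1.02, adjusted p = 1, edgeR), with both cured libraries above both prion libraries. The remaining members there lay between -0.19 for RIM11 (95% interval -0.57 to 0.19) and 0.14 for MSN2 (-0.425 to 0.70). In SPO medium RIM15, IGO1, GIS1, MSN2 and SCH9 turned to values below 0 with library sizes, with TPM or without the pair of libraries that MET17 sets against its labels.

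**Figure D4:**
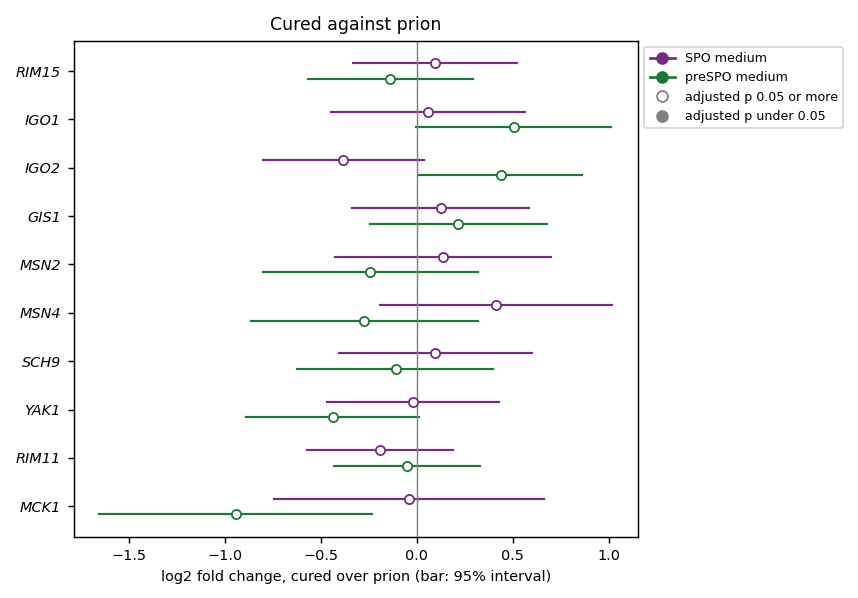
Log2 fold change of cured over prion for the 10 genes in SPO (purple) and preSPO (green) medium, with 95% intervals from edgeR; no point is filled because no adjusted p is under 0.05. MCK1 in preSPO medium is lowest, at -0.95.

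The 2 cured SPO replicates differed in a way that touches several members. Replicate 1, the shallowest library, lay above replicate 2, the deepest, for RIM15, GIS1, MSN2, SCH9, YAK1, RIM11 and MCK1, and below it for IGO1, IGO2 and MSN4. The gap was 52.4% of the mean for MCK1, 38.2% for MSN2 and 32.3% for SCH9. Replicate 1 is also the cured library whose MET17 count goes against its label, and what part either fact had in the gaps was not tested.

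The genes around the 10 were read from lists of pathway members taken from textbook knowledge. The counts of every list below stand beside the shares of all genes tested. Of these, 28.6% rose and 28.6% fell in cured libraries, and 26.2% rose and 27.1% fell in prion libraries. No list was tested against these shares, so a count near them shows no response of its pathway. Of 24 known targets of Msn2/4 or Gis1, 14 rose and 1 fell in cured libraries and 11 rose and 4 fell in prion libraries, by the same edgeR test. Their median log2 fold change was 1.39 in cured and 0.47 in prion libraries, beside 0.03 and 0.00 over all genes. GRE1, a hydrophilin gene, rose by 8.71 (SE 0.657) and 9.70 (SE 0.689), with 5807 and 5239 CPM in cured SPO against 6.78 and 18.7 CPM in cured preSPO. HSP12, a small membrane-bound heat shock protein gene, rose by 7.02 and 6.62 in cured and prion libraries, and DDR2 by 6.25 and 4.20. SOD2, the mitochondrial superoxide dismutase gene, rose by 2.36 in cured libraries, and SSA3, an Hsp70 gene, by 2.87 and 3.90 in cured and prion libraries. SOD2 was higher in prion SPO too, with 673 and 628 CPM against 133 and 191 CPM in prion preSPO. STRE stood in 22 of the 24 windows and PDS in 4. In cured libraries 9 of the 24 rose and 7 fell with TPM, and the count that fell in prion libraries was 1 to 7 over the alternatives.

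Of 17 genes of the PKA pathway, 8 rose and 3 fell in cured libraries and 5 rose and 4 fell in prion libraries, with medians of 0.68 and 0.15. PDE2, the high-affinity cAMP phosphodiesterase, fell, with log2 fold changes of -3.14 (SE 0.314) in cured and -2.52 (SE 0.304) in prion libraries. BCY1, the inhibitory subunit of PKA, rose by 2.38 and 1.81. GPA2, the G protein subunit of glucose sensing, rose by 0.91 and 1.59, and PDE1, the other cAMP phosphodiesterase, fell, at -1.24 and -0.64. With TPM 1 of these genes rose and 8 fell in cured libraries, and the number that fell in prion libraries was 1 without prion SPO replicate 1 and 2 without the other prion SPO replicate.

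Of 19 genes of TORC1 and its regulators, 1 rose and 6 fell in cured and 1 rose and 4 fell in prion libraries, with medians of -0.17 and -0.15. NPR2, NPR3 and IML1, which together form the complex that inhibits TORC1 on nitrogen loss, fell in both states. Their log2 fold changes were -1.15, -0.96 and -0.99 in cured and -0.94, -0.48 and -0.75 in prion libraries. GTR2, a Rag family GTPase, fell by 1.25 in cured libraries and had -0.48 (adjusted p = 0.0515, edgeR) in prion libraries, and TCO89, a subunit of TORC1, fell, at -0.82 and -0.67. The number that fell in prion libraries was 0 without prion SPO replicate 1, and it was 1 when prion SPO replicate 2 or prion preSPO replicate 1 was left out.

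Of 13 genes of the Snf1 pathway, which answers glucose loss, 3 rose and 5 fell in each state, with medians of -0.32 in cured and -0.34 in prion libraries. ADR1 and CAT8, activators of genes for nonfermentable carbon, rose by 3.11 and 2.23 in cured and by 2.26 and 2.05 in prion libraries. SIP2, a Snf1 beta subunit, rose by 2.05 and 2.42, and MIG1, the glucose repressor, fell, at -1.89 and -2.40. Without prion SPO replicate 1 the number that fell in prion libraries was 3.

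Among 9 neighbours of Rim15, 3 rose and 2 fell in cured and 3 rose and 1 fell in prion libraries, with medians of 0.14 and 0.10. PHO85, the cyclin-dependent kinase that keeps Rim15 in the cytoplasm, rose by 1.68 and 1.70, and BMH1, a 14-3-3 protein gene, by 1.69 and 1.55. TPD3, the scaffold of PP2A, fell, at -0.96 and -1.10, and PPH22, a catalytic subunit, rose by 0.53 and 0.43. CDC55, the PP2A subunit that Igo1/2 inhibit, had log2 fold changes of -0.14 (adjusted p = 0.484, edgeR) and 0.04 (adjusted p = 0.841) and was chosen for mention after its values were seen. The count that fell in cured libraries was 1 without any 1 library of the cured or SPO groups, and that in prion libraries was 2 without prion preSPO replicate 1.

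Of 8 mRNA decay factors linked to Igo1/2 or Yak1, 1 rose and 2 fell in cured and 1 rose and 3 fell in prion libraries, with medians of -0.25 and -0.36. CCR4, the deadenylase, rose by 1.59 and 0.85, and DCP2, the decapping enzyme, fell, at -0.69 and -0.65. DHH1 and PAT1, activators of decapping, fell in prion libraries, at -1.29 and -0.57, and POP2, a deadenylase that Yak1 phosphorylates, fell by 0.50 in cured libraries. None of the 8 was called in prion libraries without prion preSPO replicate 1 or without either prion SPO replicate, and none was called lower in cured libraries without cured preSPO replicate 1 or cured SPO replicate 2.

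Of 12 paralogs and related factors, 5 rose in each state, 4 fell in cured and 3 fell in prion libraries, with medians of -0.19 and -0.18. CRF1, a corepressor of ribosomal protein genes that Yak1 phosphorylates, rose by 3.57 and 3.70. PKH1, a kinase that phosphorylates Sch9, rose by 1.01 and 1.34, and XBP1, a stress-induced repressor, by 2.93 and 2.26. YGK3, another GSK-3 family kinase, fell, at -1.75 and -1.12. The count that rose was 3 in cured libraries without cured preSPO replicate 2, and in prion libraries without prion SPO replicate 2 it was 3 that rose and 1 that fell.

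Of 6 meiotic factors beside Rim11 and Mck1, 2 rose and 1 fell in cured and 3 rose and 1 fell in prion libraries, with medians of 0.22 and 0.57. IME1, the master activator of meiosis that Rim11 phosphorylates, rose by 2.84 (SE 0.266) and 3.17 (SE 0.269), with 111 and 116 CPM in cured SPO against 18.0 and 14.1 CPM in cured preSPO. UME6, its partner on URS1, rose by 1.06 and 1.90, and RPD3, a histone deacetylase, fell, at -1.14 and -0.75. IME2, the kinase below Ime1, had 0.29 (adjusted p = 0.399, edgeR) in cured libraries and rose by 0.95 in prion libraries. RPD3 was not called in prion libraries when prion preSPO replicate 1 or either prion SPO replicate was left out.

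**Figure D5:**
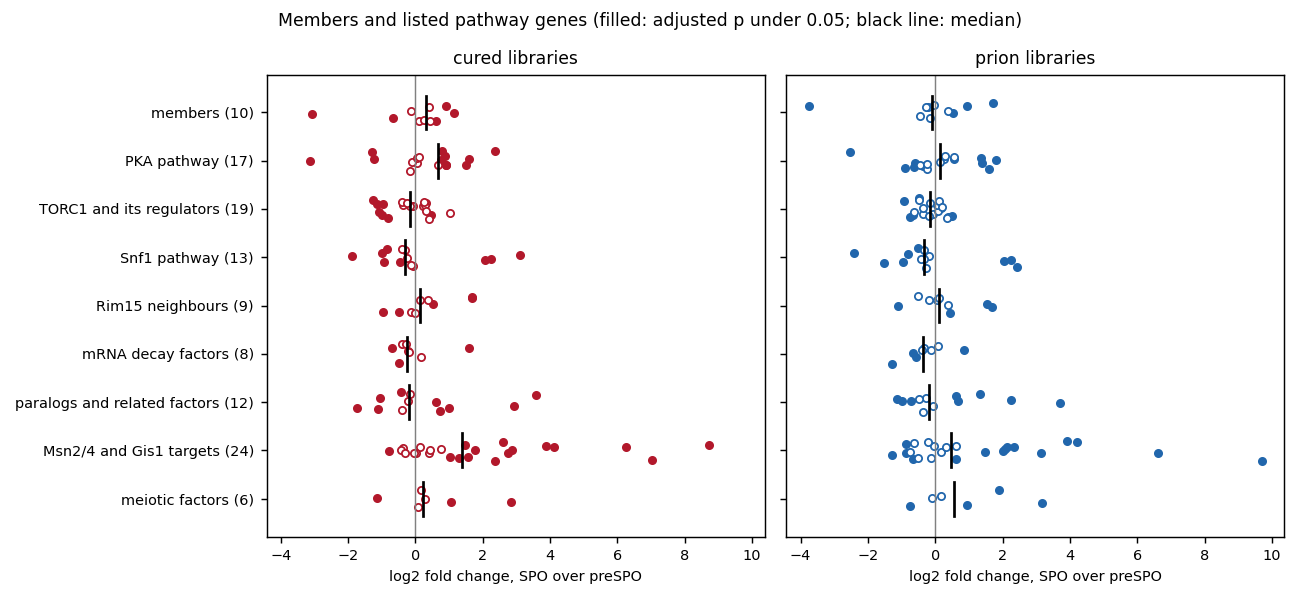
Log2 fold change of SPO over preSPO for the 10 members and for each gene of the 8 lists, in cured (left) and prion (right) libraries, with filled points where the adjusted p is under 0.05 and a black line at each list's median. The targets of Msn2/4 and Gis1 reach 8.71 in cured and 9.70 in prion libraries, and MSN4 is the lowest member in both.

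Scaling moved the counts of every list. On log2(TPM + 1), 549 of the 4013 genes called in cured libraries were higher in SPO medium. With TPM, the genes that fell in cured libraries numbered 12 of the TORC1 list, 10 of the Snf1 list, 5 of the Rim15 neighbours, 7 of the decay factors, 7 of the paralogs and related factors and 3 of the meiotic factors.

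Between the states, 0 of the 108 listed genes were called by edgeR in SPO medium, in preSPO medium or in the difference of responses. At an unadjusted p under 0.05 they numbered 2 in SPO medium, 24 in preSPO medium and 15 in the difference of responses, near the shares of all genes at that threshold (2.43%, 19.9% and 12.5%). DESeq2 called 0, 5 and 1 of them, and limma on log2(TPM + 1) called 0, 1 and 0. The median log2 fold change of the 24 targets of Msn2/4 and Gis1, cured over prion, was 0.11 in SPO medium and -0.43 in preSPO medium, beside 0.01 and 0.00 over all genes.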

How the data were processed

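Each library has a deposited table of estimated counts and TPM values. The submitters' processing notes name kallisto and build R64, and the sources used here give no version, index or strand setting. As deposited, the estimated (expected) counts are fractional, and they were rounded to whole numbers for testing. The deposited TPM values come from the same run and have nearly equal sums in all libraries. Lengths are coding lengths, since 6711 of 6713 targets have one divisible by 3. A RefSeq locus tag was found for 6026 targets (89.8%).

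Tests used edgeR 4.0.16 in R 4.3.3 (glmQLFit and glmQLFTest, TMM, filterByExpr), with 1 mean per group, all 8 libraries and 4 residual degrees of freedom. The two-sided tests were adjusted over 6346 genes (Benjamini-Hochberg), and a gene was called where the adjusted p was under 0.05. Cured was set over prion in each medium, SPO over preSPO in each state, and the responses against each other. Alternatives were library sizes in place of TMM, DESeq2 1.42.0, no filter, limma 3.58.1 (limma-trend) on log2(TPM + 1) and log2(TPM + 0.1), each library left out, the pair whose MET17 counts go against the labels (prion SPO replicate 2 with cured SPO replicate 1) left out together, and blocks for the replicate number and for that letter within a state (the culture). The fits were tested on simulated counts in which few genes changed, as many up as down. Such counts do not test the scaling between media, where most genes were called. edgeR's test gives no standard error, so SE was taken as the absolute log2 fold change over the square root of the test's F statistic. The 95% intervals of the fitted log2 fold change were built from that SE with a t quantile.

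The sample descriptions give the replicates of each group a letter that recurs in the other medium, which was read as the culture, though the labels do not say so. Deviations of replicate 1 from the group mean correlated at 0.316 between cured SPO and cured preSPO and at 0.071 between prion SPO and prion preSPO across genes, so the pairing rests on the letters. No replicates were duplicate libraries.

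The named genes are the 10 members, VTS1 and MET17, up to 4 genes per list with the smallest p in each comparison of media, and for likeness the 2 genes with a mean of at least 10 CPM and the smallest root mean square difference of centred log2 CPM (prior count 2). A gene that this rule names is not reported here. Members, lists and tests were chosen with earlier results of these data known.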

Additional observations from a re-analysis of the deposited data

How the results depend on the processing

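With 2 replicates a group, results could be checked only coarsely, and each lone replicate left behind is assumed to vary like the other groups. Of the calls on members, MSN4 in both states and IGO2 in prion libraries held under all 16 alternatives. The number of members called for SPO over preSPO in cured libraries was 3 with library sizes, 3 with TPM (either pseudocount) and 3 to 5 with 1 or 2 libraries left out, where TMM with all libraries gave 5. In preSPO medium DESeq2 called 1 member and 441 genes between the states, limma on log2(TPM + 1) called 94 genes (67 higher in cured, where TMM gave 29 of 59 and library sizes 34 of 52), and the replicate number as a block called 142. With libraries left out that count was 0 to 468. In SPO medium the states differed in 4 genes with library sizes, 15 with DESeq2, 10 and 8 with TPM (pseudocounts 1 and 0.1), and 2 to 11 with libraries left out. For SPO over preSPO in prion libraries 2171 to 3434 genes were called with libraries left out. The difference of responses was called in 4 genes with library sizes, 133 with DESeq2, 41 and 29 with TPM, 0 with the culture as a block and 0 to 44 with libraries left out. The replicate number as a block changed no call on a member between states or media, and the culture as a block, which allows no test between states, added MCK1 between media in both states. The cause of the changes below was not tested. For cured over prion in SPO medium, with library sizes and with TPM (pseudocounts 1 and 0.1), RIM15 had -0.063, -0.14 and -0.17, IGO1 -0.13, -0.20 and -0.20, GIS1 -0.030, -0.13 and -0.15, MSN2 -0.020, -0.094 and -0.12, and SCH9 -0.058, -0.16 and -0.17. With libraries left out these ran from -0.20 to 0.29 for RIM15, -0.061 to 0.18 for IGO1, -0.13 to 0.33 for GIS1, -0.33 to 0.40 for MSN2, -0.23 to 0.31 for SCH9, -0.17 to 0.11 for YAK1 and -0.47 to 0.30 for MCK1. In preSPO medium SCH9 had 0.018 and 0.019 and RIM11 0.055 and 0.056 with TPM, and with libraries left out MSN4 ran from -0.73 to 0.076 and SCH9 from -0.34 to 0.17. For SPO over preSPO in cured libraries, TPM gave -0.33 and -0.38 for RIM15, -0.096 and -0.096 for IGO2, -0.77 and -0.86 for MSN2, -0.69 and -0.73 for YAK1, -0.59 and -0.60 for RIM11 and -0.53 and -0.54 for MCK1, and library sizes gave -0.25 for MSN2 and -0.12 for YAK1. With libraries left out GIS1 ran from -0.37 to 0.066 and MSN2 from -0.17 to 0.38. In prion libraries TPM gave -0.21 and -0.24 for RIM15 and -0.088 and -0.089 for RIM11, and with libraries left out IGO1 ran from -0.46 to 0.051 and YAK1 from -0.36 to 0.077. In the difference of responses TPM gave -0.11 and -0.14 for RIM15 and -0.18 and -0.19 for SCH9. With libraries left out it ran from -0.058 to 0.42 for RIM15, -0.35 to 0.11 for GIS1, -0.090 to 0.65 for MSN2, -0.12 to 0.44 for SCH9 and -0.32 to 0.015 for RIM11.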
